A study of Mus musculus with 12 samples.

Results

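The comparison described here is the depot by group interaction in mouse fat, that is, whether the difference between KI-HFD and WT-NC mice was the same in brown adipose tissue (BAT) and in inguinal white adipose tissue (IWAT). It takes in all 12 libraries of the series, so 12 of 12 samples are members, chosen by the tissue and group named in their titles. The 4 groups hold 3 libraries each. BAT KI-HFD and IWAT KI-HFD come from mice whose genotype label is Adv-CGRPalpha+/- and whose titles read KI and HFD, the usual abbreviation of high-fat diet. BAT WT-NC and IWAT WT-NC come from wild-type mice on normal chow. All mice were C57BL/6. Genotype and diet change together between the groups, so their parts in any value below cannot be told apart. Ages, the length of the diet and the cells in which the labelled allele acts are not given in the sources used here. Whether each library is a separate mouse is stated only as a number of animals per group, so p-values measure the spread between these libraries. Whether BAT and IWAT libraries come from the same mice is not stated either. In 5 pairs a BAT and an IWAT library carry the same number in their deposited names, which might mark a mouse, and the model treats the depots as separate samples. RNA was poly-A selected and sequenced single-end without strand information, and the values are reads per gene.

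Brown fat burns fatty acids and glucose to make heat through the uncoupling protein Ucp1, whereas inguinal fat mainly stores triglyceride and can gain brown-like cells. Both depots hold macrophages, blood vessels wrapped by pericytes, and sympathetic nerves that act through the adrenergic receptor Adrb3 and cAMP. A high-fat diet is known to change all of these. CGRP is a peptide of sensory nerves that widens blood vessels, and its alpha form is encoded by Calca. The interaction asks which genes differed between groups by another amount, or in another direction, in BAT than in IWAT, and a positive value means a higher KI-HFD over WT-NC log2 fold change in BAT.

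Library totals were 17408621 to 23514095 counts and 21148 to 24549 genes were detected per library. The labelled tissues carried their markers. Ucp1 was at 5670 to 12300 CPM (reads of a gene relative to the library's TMM-scaled total) in BAT and at 2.69 to 27.8 CPM in IWAT. Hoxc9, a positional gene of the lower trunk, was at 0 to 0.188 CPM in BAT and at 6.33 to 11.6 CPM in IWAT. Some libraries stood apart. The third IWAT KI-HFD library held 599 CPM summed over T and NK cell genes, against 6.98 to 121 CPM in the other 11. The second BAT WT-NC library held 85200 CPM summed over skeletal muscle genes, and the other 5 BAT libraries held 778 to 24800 CPM. The second IWAT WT-NC library held 82.5 CPM summed over epithelial and mammary genes, against 0.24 to 6.03 CPM in the other 11. Calca was at 0 to 1.05 CPM in every library, or 0 to 25 reads, so it does not check the genotype label in these tissues.

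No gene passed the test of the interaction. Among 17395 genes tested with edgeR's quasi-likelihood test, 0 had an adjusted p below 0.05, and the smallest adjusted p was 0.463. At an unadjusted p below 0.05 there were 831 genes, or 4.78% of those tested, with 356 (2.05%) showing a higher KI-HFD over WT-NC value in BAT and 475 (2.73%) a lower one. The share of 4.78% was no larger than a threshold of 0.05 would give without any effect. DESeq2 called 28 genes (0.161%), 15 positive and 13 negative, and limma-voom called 0. Of the 831 genes, 629 had log2 fold changes of opposite sign in BAT and IWAT, 150 had the same sign and a larger size in BAT, and 52 the same sign and a larger size in IWAT. Across all genes tested, 39.1% had opposite signs. The 831 genes were picked by their difference between depots, which by itself favours opposite signs, so these shares are not comparable. The depot effects correlated across genes with r = 0.24 (Spearman's rho = 0.27), a description only, since genes of 12 shared libraries are not independent replicates.

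Another reading asks for groups that do not overlap in either depot. With so few libraries per group this can arise without any effect, and how often was not tested, so the counts are descriptions only. Taken alone, BAT had groups without overlap for 6.44% of genes with KI-HFD higher and 6.48% with KI-HFD lower. In IWAT these shares were 7.87% and 8.05%. The order was opposite in the depots for 61 genes (0.351% of those tested). Of these, 45 (0.259%) had all BAT KI-HFD libraries above BAT WT-NC and all IWAT KI-HFD libraries below IWAT WT-NC, and 16 (0.0920%) had the reverse. The same order in both depots was found for 372 genes (2.14%), 172 (0.989%) with KI-HFD higher and 200 (1.15%) with KI-HFD lower. Same-order genes were thus the more numerous. The genes named next have the lowest interaction p at a mean of 2 CPM or more in some group, and the values are descriptions of genes that did not pass the adjusted threshold in edgeR.

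**Figure D1:**
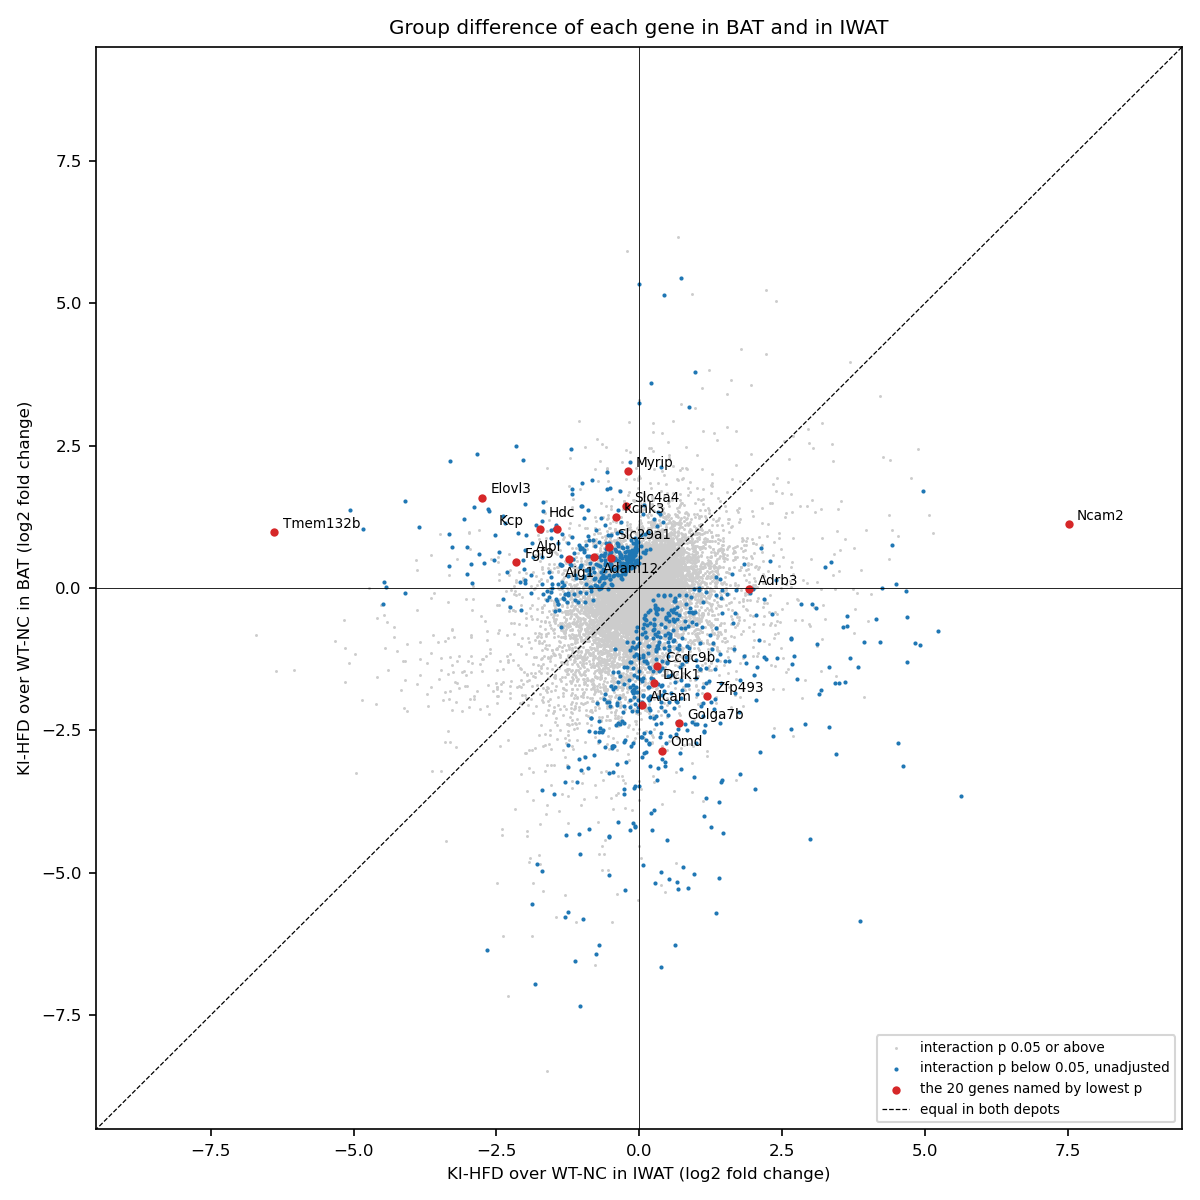
Each point is a gene, with the KI-HFD over WT-NC log2 fold change in IWAT on the horizontal axis and in BAT on the vertical axis. Blue points have an unadjusted interaction p below 0.05 (831 of 17395 genes), red points are the 20 named by lowest p, and the dashed line marks equal values in both depots. Elovl3 lies at upper left, Adrb3 at right on the horizontal zero line, and Alcam and Omd below that line.

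Elovl3 had the lowest p of all. It encodes a fatty acid elongase of brown fat, and lies on chromosome 19 (46131897 to 46135694, plus strand, GRCm38). It stood at 477, 450 and 340 CPM in BAT KI-HFD, against 59.5, 140 and 222 CPM in BAT WT-NC. In IWAT it stood at 1.30, 0.288 and 0.599 CPM in KI-HFD, against 3.84, 3.74 and 7.34 CPM in WT-NC. KI-HFD was thus higher in BAT and lower in IWAT with no overlap in either depot. The log2 fold change was 1.59 ± 0.47 (SE) in BAT and -2.76 ± 0.56 in IWAT, an interaction of 4.34 ± 0.73 (edgeR adjusted p = 0.463). DESeq2 called it, with an adjusted p of 7.23e-06.

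Further genes had this opposite, non-overlapping order with KI-HFD higher in BAT. Kcp, a secreted BMP-binding protein on chromosome 6 (29473162 to 29507952, minus strand), stood at 20.8, 41.8 and 30.0 CPM in BAT KI-HFD, against 14.5, 18.3 and 12.4 CPM in BAT WT-NC. In IWAT, Kcp stood at 1.12, 0.815 and 1.32 CPM in KI-HFD, against 2.56, 3.15 and 5.23 CPM in WT-NC. That is 2.05 times the BAT WT-NC level in BAT and 0.300 times the IWAT WT-NC level in IWAT, with an interaction of 2.77 ± 0.48. Alpl, the tissue-nonspecific alkaline phosphatase, averaged 49.1 ± 6.74 CPM in BAT KI-HFD and 34.6 ± 3.00 CPM in BAT WT-NC (SD, n = 3 each). Its IWAT averages were 6.26 ± 1.60 CPM in KI-HFD and 14.7 ± 3.49 CPM in WT-NC. Its interaction was 1.73 ± 0.33.

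Adam12, a membrane metalloprotease, stood at 55.7, 43.9 and 57.1 CPM in BAT KI-HFD, against 32.9, 34.3 and 39.7 CPM in BAT WT-NC. In IWAT it stood at 38.4, 24.2 and 27.3 CPM in KI-HFD, against 54.3, 49.9 and 50.8 CPM in WT-NC. So the depot with the higher mean was BAT in KI-HFD mice and IWAT in WT-NC mice, at BAT over IWAT log2 differences of 0.80 in KI-HFD and -0.54 in WT-NC. Slc29a1, an equilibrative nucleoside transporter that carries adenosine, stood at 149, 152 and 111 CPM in BAT KI-HFD, against 88.0, 71.2 and 91.3 CPM in BAT WT-NC. Its IWAT values were 42.3, 43.4 and 42.7 CPM in KI-HFD, against 61.9, 51.5 and 71.5 CPM in WT-NC. The group means of Slc29a1 were 1.64 times as high in BAT and 0.694 times as high in IWAT.

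Hdc, which makes histamine from histidine, belonged to the same set, at 9, 11.8 and 9.76 CPM in BAT KI-HFD and 6.41, 4.42 and 4.08 CPM in BAT WT-NC. In IWAT, Hdc was at 1.84, 1.87 and 3.12 CPM in KI-HFD and 4.94, 4.08 and 9.48 CPM in WT-NC. Aig1, a membrane hydrolase of fatty acid esters, had an interaction of 1.02 ± 0.22, with log2 fold changes of 0.52 in BAT and -0.49 in IWAT. Me3, a mitochondrial malic enzyme, had one of 1.51 ± 0.34, from 0.81 in BAT and -0.70 in IWAT. DESeq2 called Kcp, Alpl, Adam12, Slc29a1, Hdc and Aig1, and gave Me3 an adjusted p of 0.0741.

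The reverse order, KI-HFD lower in BAT and higher in IWAT, was seen among the leading genes in Omd and Zfp493. Omd, the small leucine-rich proteoglycan osteomodulin, stood at 0.120, 0.0550 and 0.0595 CPM in BAT KI-HFD, against 0.687, 0.782 and 0.328 CPM in BAT WT-NC. These are 1 to 2 reads in BAT KI-HFD and 7 to 17 in BAT WT-NC. In IWAT it stood at 2.73, 3.21 and 2.16 CPM in KI-HFD, against 2, 2.06 and 2.06 CPM in WT-NC, a narrow gap. Zfp493, a zinc finger gene, had log2 fold changes of -1.90 in BAT and 1.18 in IWAT.

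Another set of leading genes differed between groups mainly in BAT. Kcnk3, a background potassium channel known from brown adipocytes, stood at 393, 412 and 304 CPM in BAT KI-HFD, against 159, 126 and 181 CPM in BAT WT-NC. Its IWAT libraries overlapped, at 69.1, 53.7 and 46.2 CPM in KI-HFD and 73.4, 82.6 and 69.0 CPM in WT-NC. The log2 fold change of Kcnk3 was 1.25 ± 0.21 in BAT and -0.41 ± 0.21 in IWAT. Slc4a4, a sodium bicarbonate cotransporter, averaged 303 ± 23.4 CPM in BAT KI-HFD and 112 ± 10.3 CPM in BAT WT-NC, and 19.2 ± 6.72 CPM in IWAT KI-HFD and 22.5 ± 6.39 CPM in IWAT WT-NC. Myrip, a protein that ties secretory granules to myosin, was at 4.38, 4.07 and 4.40 CPM in BAT KI-HFD, against 1.14, 0.828 and 1.13 CPM in BAT WT-NC. Both IWAT groups of Myrip lay between 5.37 and 9.68 CPM and overlapped.

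In 4 of the leading genes the groups did not overlap in BAT, KI-HFD lower, and overlapped in IWAT. Among all genes tested, 6.48% had BAT groups without overlap and KI-HFD lower. The leading genes were picked by interaction p, so their count is not comparable with that share. Alcam, an adhesion molecule of leukocytes and stromal cells, stood at 1.86, 1.04 and 2.14 CPM in BAT KI-HFD, against 6.41, 6.54 and 7.92 CPM in BAT WT-NC. IWAT held far more of it, at 71.2, 39.7 and 38.8 CPM in KI-HFD and 53.8, 51.9 and 39.7 CPM in WT-NC, and the groups overlapped there. Dclk1, a doublecortin-like kinase of stromal cells and neurons, had log2 fold changes of -1.67 in BAT and 0.26 in IWAT. Golga7b, a helper of protein palmitoylation, had -2.37 in BAT and 0.70 in IWAT. Ccdc9b had -1.37 in BAT and 0.31 in IWAT.

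Other genes differed mainly in IWAT, and the adrenergic receptor was among them. Adrb3, through which noradrenaline drives lipolysis and heat production in fat cells, stood at 397, 492 and 306 CPM in IWAT KI-HFD, against 92.3, 132 and 90.3 CPM in IWAT WT-NC. In BAT it stood at 650, 499 and 444 CPM in KI-HFD and 535, 410 and 665 CPM in WT-NC. The IWAT groups did not overlap and the BAT groups did. The log2 fold change of Adrb3 was -0.01 ± 0.26 in BAT and 1.93 ± 0.27 in IWAT, which leaves BAT over IWAT at 0.41 in KI-HFD and 2.36 in WT-NC. Fgf9, a fibroblast growth factor, was lower in IWAT KI-HFD, at 1.39, 1.20 and 0.719 CPM, against 6.56, 4.16 and 4.08 CPM in IWAT WT-NC. Its BAT groups overlapped between 2.44 and 5.61 CPM.

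At the edge of detection in one IWAT group were Ncam2 and Tmem132b. Ncam2, a neural cell adhesion molecule, had 187, 149 and 63 reads in IWAT KI-HFD (8.38, 7.14 and 2.52 CPM), against 0, 1 and 1 reads in IWAT WT-NC. In BAT it had 7, 15 and 15 reads in KI-HFD and 3, 13 and 4 reads in WT-NC, which overlap. It was the 1 gene (0.00575% of those tested) that edgeR called in IWAT, with an adjusted p of 0.0298. With 1 library left out, a call in IWAT was left only without BAT KI-HFD 1 (2 calls), BAT WT-NC 2 (1 call), BAT WT-NC 3 (3 calls) or IWAT KI-HFD 3 (7 calls). No BAT gene was called by edgeR (0%), with 1896 genes there at an unadjusted p below 0.05, and DESeq2 called 397 in BAT and 120 in IWAT. Tmem132b, a membrane protein gene, was the other way round, with 3, 0 and 2 reads in IWAT KI-HFD against 236, 61 and 200 reads in IWAT WT-NC. Its BAT libraries held 0 to 20 reads in KI-HFD and 2 to 8 in WT-NC. Because reads were so few in these groups, the fitted folds of both genes depend on the prior count and are not given.

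**Figure D2:**
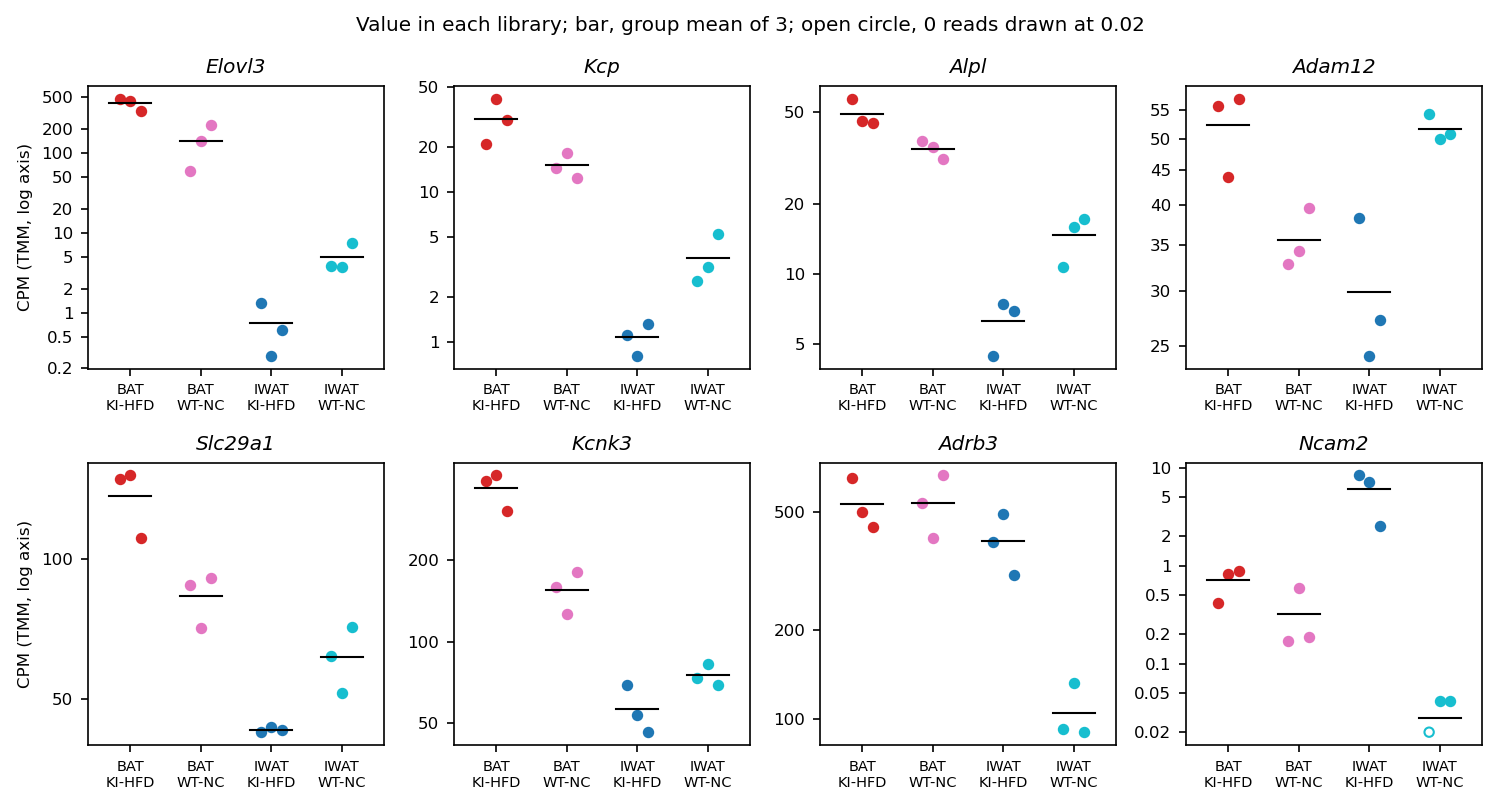
CPM in each of the 12 libraries for 8 genes, on log axes, with BAT KI-HFD, BAT WT-NC, IWAT KI-HFD and IWAT WT-NC from left to right and a bar at each group mean. The upper row and Slc29a1 show groups in opposite order in the depots, Kcnk3 differs in BAT, and Adrb3 and Ncam2 differ in IWAT, where Ncam2 had 0 to 1 reads in WT-NC.

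The interaction is also the change of the depot difference between groups. BAT and IWAT differed at 6269 genes (36.0% of those tested) in KI-HFD mice and 4940 (28.4%) in WT-NC mice by edgeR. Elovl3 was higher in BAT than in IWAT by 9.16 on the log2 scale in KI-HFD and by 4.82 in WT-NC. For Kcnk3 the BAT over IWAT values were 2.71 in KI-HFD and 1.05 in WT-NC. Fgf9, Hdc and Adam12 had BAT over IWAT values above 0 in KI-HFD mice and below 0 in WT-NC mice. These were 1.88 in KI-HFD and -0.74 in WT-NC for Fgf9, and 2.16 in KI-HFD and -0.31 in WT-NC for Hdc. By edgeR these depot differences were called in KI-HFD mice only. In WT-NC mice the edgeR adjusted p was 0.163 for Fgf9, 0.553 for Hdc and 0.051 for Adam12. Alcam was higher in IWAT than in BAT in both groups, at -4.89 in KI-HFD and -2.80 in WT-NC.

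**Figure D3:**
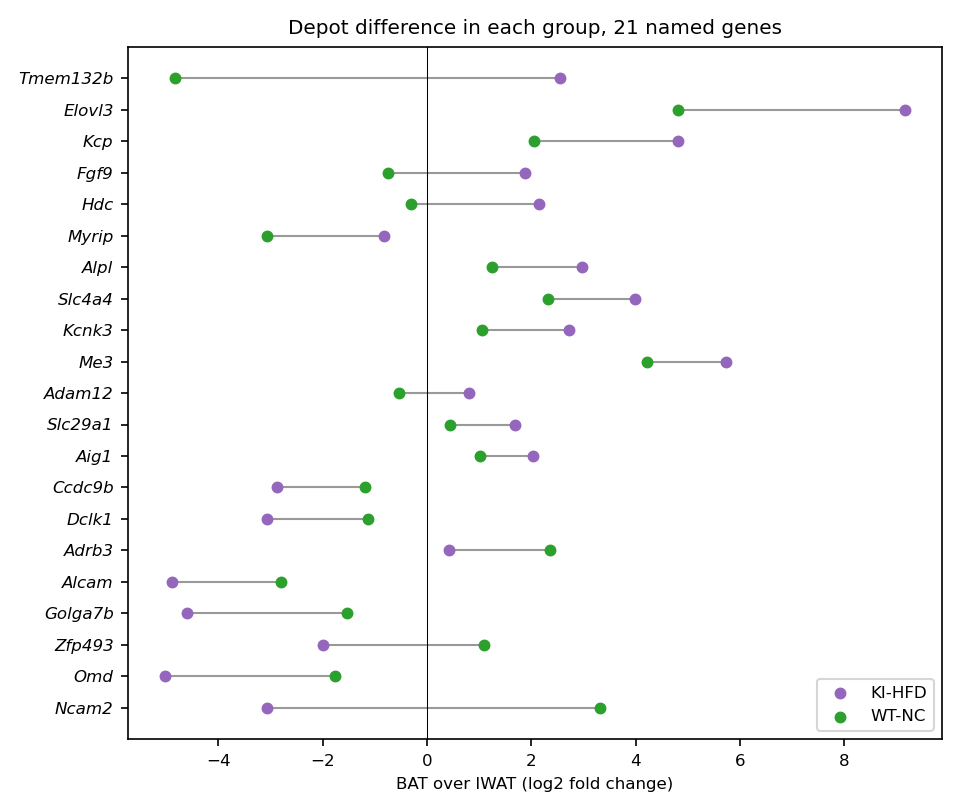
BAT over IWAT log2 fold change of 21 named genes in KI-HFD (purple) and in WT-NC (green), sorted by the interaction, which is the purple minus the green value. Elovl3 runs to 9.16 in KI-HFD and 4.82 in WT-NC, and Adrb3 to 0.41 and 2.36.

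Most resident macrophage and chemokine genes had lower values in KI-HFD in BAT, although none passed the test of the interaction or of the BAT difference in edgeR. The median log2 fold change of 20 resident macrophage genes was -1.68 in BAT and -0.13 in IWAT, and their median interaction was -1.39. The median over all genes tested was -0.02 for the interaction. In BAT 19 of the 20 were below 0, and in IWAT 14. At an unadjusted p below 0.05 there were 7 of 20 with a negative and 0 with a positive interaction, beside 2.73% and 2.05% of all genes. Groups without overlap, KI-HFD lower, were found for 7 of the 20 in BAT and 1 in IWAT, beside 6.48% of all genes in BAT and 8.05% in IWAT. Summed over the list, BAT libraries held 589 to 775 CPM in KI-HFD and 523 to 1360 CPM in WT-NC, and IWAT libraries 1380 to 2300 CPM in KI-HFD and 1370 to 2660 CPM in WT-NC, so the sums overlapped in both depots. In tissue RNA, fewer macrophages and less of these RNAs per macrophage cannot be told apart.

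Among the resident macrophage genes, F13a1, the A chain of clotting factor XIII, stood at 13.6, 14.3 and 7.97 CPM in BAT KI-HFD, against 15.8, 37.7 and 66.9 CPM in BAT WT-NC. In IWAT it stood at 125, 265 and 127 CPM in KI-HFD and 134, 85.9 and 242 CPM in WT-NC. The BAT groups did not overlap and the IWAT groups did. Cbr2, a carbonyl reductase of macrophages, stood at 6.18, 7.09 and 5.41 CPM in BAT KI-HFD, against 9.38, 24.9 and 23.6 CPM in BAT WT-NC. Its log2 fold change was -1.63 in BAT and 0.05 in IWAT. Pf4, the chemokine platelet factor, and Ccl24, an eosinophil attractant, had interactions of -1.31 and -1.78.

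Chemokines, the attractants of blood leukocytes, showed the largest median in BAT of the myeloid lists, at -2.08, against -0.77 in IWAT, with a median interaction of -0.92 over 20 genes. Of the 20, 19 were below 0 in BAT and 17 in IWAT, and 7 had an unadjusted interaction p below 0.05, all negative, beside 2.73% negative and 2.05% positive of all genes. The sums were 323 to 389 CPM in BAT KI-HFD and 387 to 623 CPM in BAT WT-NC, which overlap. Cxcl12, which retains stem cells and lymphocytes, was among 6 of the 20 with a positive interaction, at 0.64. Ccl6 stood at 6.60, 12.9 and 8.75 CPM in BAT KI-HFD, against 35.4, 67.5 and 89.8 CPM in BAT WT-NC. In IWAT, Ccl6 stood at 155, 126 and 69.7 CPM in KI-HFD and 163, 98.8 and 213 CPM in WT-NC. It was 0.147 times as high in BAT and 0.738 times as high in IWAT, and DESeq2 called its interaction with an adjusted p of 0.0411. Ccl9, its neighbour on chromosome 11, was 0.155 times as high in BAT and 0.611 times in IWAT.

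The monocyte attractants Ccl2 and Ccl7 had groups that did not overlap in BAT and overlapped in IWAT. Ccl2 stood at 0.900, 2.25 and 2.20 CPM in BAT KI-HFD, against 17.2, 20.1 and 19.6 CPM in BAT WT-NC. In IWAT, Ccl2 stood at 18.9, 4.17 and 9.07 CPM in KI-HFD, against 24.8, 14.5 and 39.9 CPM in WT-NC. The log2 fold changes of Ccl2 were -3.40 ± 0.56 in BAT and -1.30 ± 0.50 in IWAT, and those of Ccl7 -3.19 ± 0.46 in BAT and -1.02 ± 0.42 in IWAT. Only the change averaged over depots was called by edgeR, with adjusted p of 0.0399 for Ccl2 and 0.03 for Ccl7. The chemokine list's median interaction was -0.55 without BAT KI-HFD 2, -1.57 without BAT KI-HFD 3, -0.60 without IWAT WT-NC 2 and -0.14 without the lymphocyte-rich and the muscle-rich library.

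Lipid-associated macrophage genes, a program of macrophages that take up lipid, had medians of -1.60 in BAT and -0.83 in IWAT and a median interaction of -0.72 over 22 genes (-1.15 without BAT KI-HFD 3). Non-overlapping lower groups were counted for 11 of the 22 in BAT and 4 in IWAT, beside 6.48% of all genes in BAT and 8.05% in IWAT. In BAT 6 of the 22 were above 0, and 7 had a positive interaction. Among these 7 were Lipa, the lysosomal acid lipase, at 1.15, the lipid droplet protein Plin2 at 0.82 and the lipoprotein lipase Lpl at 0.74, and adipocytes express several of them. Spp1, the matrix protein osteopontin, stood at 0.720, 1.15 and 0.892 CPM in BAT KI-HFD, against 11.3, 7.46 and 12.2 CPM in BAT WT-NC. In IWAT its groups overlapped, at 13, 2.20 and 5.31 CPM in KI-HFD and 6.14, 2.69 and 11.6 CPM in WT-NC. Mmp12, macrophage elastase, stood at 0.720, 4.67 and 3.57 CPM in BAT KI-HFD, against 41.2, 85.6 and 132 CPM in BAT WT-NC. In IWAT, Mmp12 was at 86.6, 4.17 and 37.8 CPM in KI-HFD and 166, 67.6 and 212 CPM in WT-NC. Lgals3 (galectin) and Capg (an actin capping protein) were 0.114 and 0.260 times as high in BAT, and 0.420 and 0.654 times in IWAT.

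Other inflammatory and stress lists had negative median interactions with members of both signs. The stress cytokine Gdf15, an integrated stress response target, stood at 2.82, 1.76 and 2.80 CPM in BAT KI-HFD, against 14.8, 21.9 and 24.5 CPM in BAT WT-NC. In IWAT its groups overlapped, at 3.18, 0.671 and 2.04 CPM in KI-HFD and 3.39, 1.30 and 2.27 CPM in WT-NC. Its log2 fold change was -3.05 ± 0.52 in BAT and -0.24 ± 0.50 in IWAT. The acute phase genes Saa3 and Ptx3 had interactions of -4.50 ± 1.37 and -1.75 ± 0.70. Medians were -0.62 for the interaction of 17 cytokine and acute phase genes, -0.38 for 18 stress response genes and -0.43 for 18 interferon response genes. Positive interactions were 1.76 for Il1rn, the interleukin-1 receptor antagonist, 1.39 for the cytokine Il1b and 1.06 for Vldlr of the stress list. The cytokine median was -0.34 without BAT KI-HFD 1, -0.23 without BAT WT-NC 1 and -0.41 without IWAT KI-HFD 2. The stress median was -0.25 without BAT WT-NC 1, -0.06 without BAT WT-NC 3 and -0.25 without IWAT WT-NC 3. The interferon median was -0.18 without BAT WT-NC 3, -0.23 without IWAT KI-HFD 2 and -0.16 without IWAT WT-NC 2. The complement list had a median interaction of -1.10, with medians of -0.90 in BAT and -0.14 in IWAT, and the interaction was -0.43 without BAT WT-NC 3. Cfp (properdin), which stabilizes the alternative pathway's convertase, had -1.81 in BAT and -0.12 in IWAT.

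Vessel wall genes tilted the other way, through lower values in IWAT KI-HFD. All 20 pericyte and smooth muscle genes had a log2 fold change below 0 in IWAT, with a median of -0.99, and 15 in BAT, with a median of -0.22. The median interaction was 0.79. In IWAT 15 of the 20 had groups that did not overlap, KI-HFD lower, beside 8.05% of all genes, and in BAT 1 of 20, beside 6.48%. At an unadjusted interaction p below 0.05 there were 7 positive and 0 negative genes, beside 2.05% positive and 2.73% negative of all genes. Summed over the list, the libraries held 1060 to 1360 CPM in BAT KI-HFD and 1010 to 2790 CPM in BAT WT-NC, the highest being the muscle-rich library. In IWAT the sums were 605 to 1040 CPM in KI-HFD and 1250 to 1410 CPM in WT-NC, with no overlap.

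The soluble guanylyl cyclase subunits Gucy1a1 and Gucy1b1, which together form the nitric oxide receptor of smooth muscle and pericytes, illustrate the list. Gucy1b1 stood at 7.08, 5.22 and 5.77 CPM in BAT KI-HFD and 3.66, 6.12 and 7.36 CPM in BAT WT-NC. In IWAT it stood at 6.86, 5.70 and 5.03 CPM in KI-HFD, against 14.3, 17.2 and 15.7 CPM in WT-NC. Gucy1a1 followed, at 23.4, 16.2 and 20.5 CPM in IWAT KI-HFD, against 49.8, 45.3 and 47.6 CPM in IWAT WT-NC, and between 9.56 and 19.1 CPM in all 6 BAT libraries. The BAT groups overlapped for both subunits and the IWAT groups did not, and the IWAT KI-HFD means were 0.373 (Gucy1b1) and 0.421 (Gucy1a1) times those of IWAT WT-NC. Their interactions were 1.5 ± 0.40 (Gucy1b1) and 1.12 ± 0.33 (Gucy1a1).

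Notch3, the Notch receptor of mural cells, stood at 26.9, 21.5 and 20.8 CPM in BAT KI-HFD and 25.7, 27.7 and 37.3 CPM in BAT WT-NC. In IWAT it stood at 24.1, 15.7 and 25.7 CPM in KI-HFD, against 47.4, 54.1 and 71.1 CPM in WT-NC, 0.380 times as high. Ndufa4l2, a pericyte-rich mitochondrial protein, was 0.884 times as high in BAT and 0.395 times in IWAT. The promoter windows of the subunit pair and of Notch3 are shown because these genes were lower together in IWAT KI-HFD. Each runs from 250 bases before to 50 after the start in RefSeq (GRCm38.p6, minus strand). They lie at chr3:82145601-82145900 for Gucy1a1 (the window of 2 nearest the annotated start), chr3:82074662-82074961 for Gucy1b1 and chr17:32166841-32167140 for Notch3. Capitals mark matches on either strand to GGGCGG, the GC box, to CCAAT, an element near many start sites, to TGACG, the core of the cAMP response element, and to TATAAA, the TATA box.
Gucy1a1: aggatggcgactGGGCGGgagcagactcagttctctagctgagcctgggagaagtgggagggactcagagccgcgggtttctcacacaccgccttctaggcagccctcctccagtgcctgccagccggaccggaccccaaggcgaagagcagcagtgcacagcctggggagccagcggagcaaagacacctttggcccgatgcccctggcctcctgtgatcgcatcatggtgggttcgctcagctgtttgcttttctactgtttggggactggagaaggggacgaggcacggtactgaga
Gucy1b1: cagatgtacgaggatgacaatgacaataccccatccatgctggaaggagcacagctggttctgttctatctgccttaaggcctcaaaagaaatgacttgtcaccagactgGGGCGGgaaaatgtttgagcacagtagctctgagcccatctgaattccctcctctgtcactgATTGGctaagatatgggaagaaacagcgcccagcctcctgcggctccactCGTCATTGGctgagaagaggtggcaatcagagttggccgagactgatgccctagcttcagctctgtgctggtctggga
Notch3: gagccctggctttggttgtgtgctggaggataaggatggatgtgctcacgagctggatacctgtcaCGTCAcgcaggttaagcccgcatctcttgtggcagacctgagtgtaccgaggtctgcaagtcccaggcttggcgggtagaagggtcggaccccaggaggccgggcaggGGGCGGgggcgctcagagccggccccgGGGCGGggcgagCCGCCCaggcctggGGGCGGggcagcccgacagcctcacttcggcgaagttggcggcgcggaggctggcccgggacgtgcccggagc
GGGCGG was found in 3 of the 3 windows, 4 times in that of Notch3, and in 35.7% of all 32851 RefSeq promoter windows. TGACG was found in 2 of 3 (20.8% of all windows), CCAAT in 1 (37.4%) and TATAAA in 0 (13.6%). In the Gucy1b1 window 1 of 2 CCAAT matches overlaps the TGACG match. Such matches describe letters only and say nothing of which factor binds.

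Endothelial genes had a smaller tilt in the same direction. Of 20 genes, 19 were below 0 in IWAT (median -0.67) and 14 in BAT (median -0.12), and the median interaction was 0.54. Without BAT KI-HFD 3 that median was 0.32, and without IWAT KI-HFD 2 it was 0.29. Non-overlapping lower groups were counted for 16 of 20 in IWAT and 2 in BAT, beside 8.05% of all genes in IWAT and 6.48% in BAT. Tie1, an endothelial receptor kinase, stood at 156, 141 and 156 CPM in BAT KI-HFD and 140, 153 and 157 CPM in BAT WT-NC. In IWAT, Tie1 stood at 91.2, 48.0 and 83.7 CPM in KI-HFD, against 113, 125 and 162 CPM in WT-NC. Aplnr, the apelin receptor, was 0.825 times as high in BAT and 0.373 times in IWAT, and Emcn, the mucin of capillary and venous endothelium, 1.13 and 0.582 times. The 20 white adipocyte genes had medians of 0.22 in BAT and 0.17 in IWAT.

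**Figure D4:**
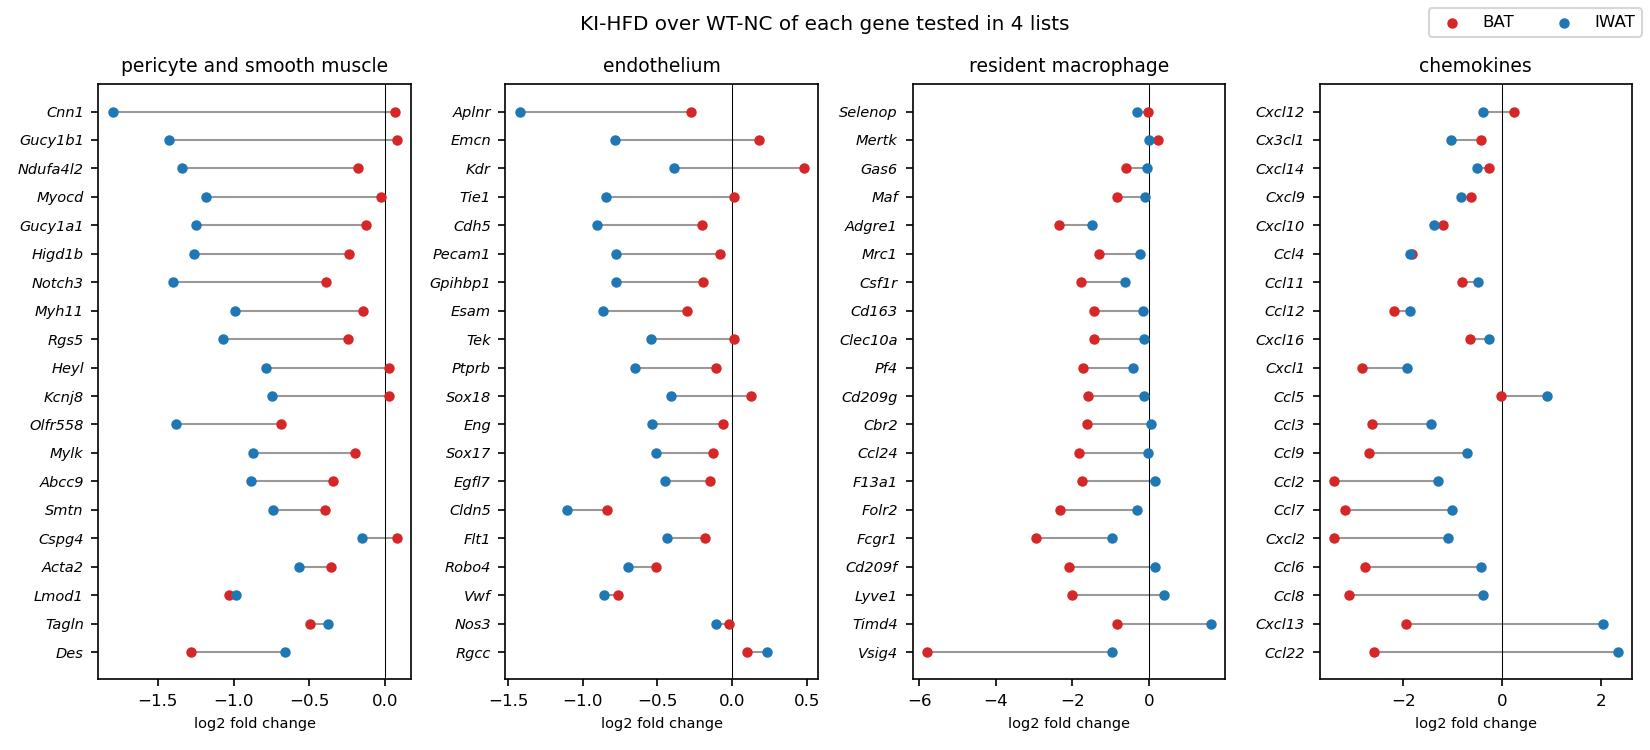
KI-HFD over WT-NC log2 fold change of each gene tested in 4 lists, in BAT (red) and in IWAT (blue), sorted by the interaction. In the vessel lists the blue points lie left of the red ones for 17 of 20 and 19 of 20 genes, and the red points lie left of the blue ones for 18 of 20 resident macrophage and 14 of 20 chemokine genes.

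The collagen and matrix list had the same direction in both depots. All 24 collagen and matrix genes had log2 fold changes below 0 in BAT and in IWAT, with medians of -0.99 in BAT and -0.48 in IWAT. Groups without overlap, KI-HFD lower, were found for only 5 of the 24 in BAT and 3 in IWAT, beside 6.48% and 8.05% of all genes. The median interaction was -0.65, and -0.10 without BAT WT-NC 3 and -0.29 without IWAT KI-HFD 1. Postn (periostin) had an interaction of 1.14, at 146, 120 and 130 CPM in BAT KI-HFD and 96.3, 180 and 203 CPM in BAT WT-NC. In IWAT, Postn was at 257, 116 and 109 CPM in KI-HFD, against 439, 396 and 450 CPM in WT-NC, with no overlap. Timp1, an inhibitor of metalloproteases, was 0.145 times as high in BAT and 0.661 times in IWAT. Among progenitor genes, Dpp4 and Cd55 had interactions of -1.62 and -1.14. Without the second BAT WT-NC library, which holds the highest value of both in that group, they were -1.004 and -0.70.

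Single genes of secreted regulators, a proteoglycan and a receptor differed mainly in IWAT or mainly in BAT. Agt, angiotensinogen, was at 131, 44.3 and 15.4 CPM in IWAT KI-HFD, against 3.88, 3.28 and 8.08 CPM in IWAT WT-NC. In BAT it was at 2.10, 4.73 and 3.63 CPM in KI-HFD and 3.20, 9.90 and 3.52 CPM in WT-NC. The IWAT groups did not overlap, although KI-HFD spread widely, and DESeq2 called the interaction with an adjusted p of 0.00486. Chrdl1, a BMP antagonist, was at 156, 175 and 141 CPM in IWAT KI-HFD, against 63.1, 72.8 and 75.1 CPM in IWAT WT-NC, with a log2 fold change of -0.07 in BAT. Podn, a proteoglycan, was 2.90 times as high in IWAT and 0.932 times in BAT. Bmp3 and Npr3, the clearance receptor of natriuretic peptides, had log2 fold changes of -1.56 and -1.20 in BAT, and of -0.04 and -0.09 in IWAT.

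Most thermogenesis genes had higher values in KI-HFD in BAT, and about as many were above as below 0 in IWAT. The median of 24 thermogenesis genes was 0.54 in BAT and 0.03 in IWAT, with 22 above 0 in BAT and 12 in IWAT, and a median interaction of 0.50. That median was 0.31 without BAT WT-NC 2, 0.89 without IWAT KI-HFD 2 and 0.07 in the 8 libraries of the lower number series. At an unadjusted interaction p below 0.05 there were 7 positive genes and 1 negative, Adrb3, beside 2.05% positive and 2.73% negative of all genes. Slc27a2, a fatty acid transporter and acyl-CoA synthetase, stood at 341, 395 and 296 CPM in BAT KI-HFD, against 114, 75.6 and 96.8 CPM in BAT WT-NC. IWAT held 0.0897, 0.383 and 0.160 CPM in KI-HFD and 0.113, 0.126 and 1.03 CPM in WT-NC, near the edge of detection. Its interaction of 2.84 was 1.08 without the third IWAT WT-NC library. Ucp1 itself was at 12300, 9170 and 8830 CPM in BAT KI-HFD and 6620, 5670 and 8890 CPM in BAT WT-NC, which overlap. In IWAT, Ucp1 was at 4.71, 9.49 and 3.6 CPM in KI-HFD and 3.20, 2.69 and 27.8 CPM in WT-NC. Its interaction of 1.44 ± 1.03 was -0.49 without the third IWAT WT-NC library.

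Nuclear-encoded mitochondrial lists had small positive medians in BAT, above those in IWAT. All 40 mitochondrial ribosome genes had a log2 fold change above 0 in BAT (median 0.40), and 30 in IWAT (median 0.09). Groups without overlap, KI-HFD higher, were found for 19 of the 40 in BAT and 2 in IWAT, beside 6.44% and 7.87% of all genes. Mrpl19, a protein of the large subunit, stood at 50, 49.0 and 48.6 CPM in BAT KI-HFD, against 37.8, 33.9 and 36.9 CPM in BAT WT-NC. Its 6 IWAT libraries lay between 16.7 and 18.5 CPM. Of 50 oxidative phosphorylation subunits, 47 were above 0 in BAT and 43 in IWAT, with a median interaction of 0.31 (0.17 without BAT WT-NC 3 and 0.50 without IWAT KI-HFD 2). The 8 genes of mitochondrial DNA had medians of 0.24 in BAT and 0.36 in IWAT, and their BAT sums overlapped, at 46600 to 75100 CPM in KI-HFD and 35600 to 87000 CPM in WT-NC. The 14 citric acid cycle genes were all above 0 in both depots, with medians of 0.56 in BAT and 0.25 in IWAT, and 23 fatty acid oxidation genes had medians of 0.63 and 0.20. The citric acid cycle's median interaction of 0.37 was 0.11 without BAT KI-HFD 1, 0.59 without BAT KI-HFD 3, 0.21 without BAT WT-NC 1, 0.19 without the muscle-rich BAT WT-NC 2, 0.87 without BAT WT-NC 3 and 0.24 without IWAT KI-HFD 3. That of fatty acid oxidation, 0.40, was 0.23 without BAT KI-HFD 1 or BAT WT-NC 1, 0.19 without BAT WT-NC 2, 0.91 without BAT WT-NC 3 and 0.64 without IWAT KI-HFD 2. Without the lymphocyte-rich and the muscle-rich library they were 0.08 and 0.10.

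List medians of lipid synthesis genes differed by branch. Triglyceride synthesis had a median of 0.63 in BAT and 0.06 in IWAT over 17 genes, and de novo lipogenesis one of 0.32 in BAT and 0.35 in IWAT over 20. With 1 library left out, the triglyceride median interaction of 0.46 ran from 0.22 to 0.61. That of lipogenesis, 0.09, ran from -0.28 to 0.37. Acsl5, an acyl-CoA synthetase, stood at 444, 385 and 240 CPM in BAT KI-HFD, against 83.1, 127 and 222 CPM in BAT WT-NC. IWAT values of Acsl5 overlapped between 72.8 and 101 CPM. Gk, glycerol kinase, was lower in IWAT KI-HFD, at 17.2, 14.0 and 14.4 CPM, against 29.6, 23.1 and 36.4 CPM in IWAT WT-NC, while its BAT groups overlapped. In cholesterol synthesis the median was 0.15 in BAT and -0.18 in IWAT over 19 genes. Its median interaction of 0.45 ran from 0.13 to 0.80 with 1 library left out. Vldlr, which takes up triglyceride-rich lipoprotein, was 1.57 times as high in BAT and 0.752 times in IWAT. Ppcs, an enzyme of coenzyme A synthesis, was 1.54 times as high in BAT and 0.923 times in IWAT.

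Adrenergic and cAMP genes were of mixed direction, at a median of 0.24 in BAT and 0.03 in IWAT over 18 genes. Gnas, the stimulatory G protein subunit, stood at 57.2, 44.7 and 53.2 CPM in BAT KI-HFD, against 38.9, 25.5 and 36.1 CPM in BAT WT-NC. Its IWAT groups overlapped between 3.07 and 5.23 CPM. Reads of antisense genes at this locus cannot be told apart without strand. Rgs2, a brake on G protein signalling, had log2 fold changes of 0.71 in BAT and -1.01 in IWAT, with overlap in both depots. Of the CGRP receptor, Calcrl had an interaction of -0.29 ± 0.48 and its partner Ramp1 one of -1.35 ± 1.00. Ramp1 was at 11.3, 9.18 and 2.86 CPM in BAT KI-HFD and 16.9, 37.9 and 3.42 CPM in BAT WT-NC, and without the muscle-rich and lymphocyte-rich libraries its interaction was 0.20. Neither depot separated the groups for these receptor genes. Leptin (Lep), the satiety hormone of fat, was at 160, 71.2 and 155 CPM in BAT KI-HFD, against 294, 179 and 1120 CPM in BAT WT-NC. In IWAT, Lep was at 6120, 2700 and 2850 CPM in KI-HFD and 6590, 7000 and 5670 CPM in WT-NC. Adiponectin (Adipoq) had an interaction of 0.21 ± 0.41.

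Lymphocyte lists had the most negative medians, and these rested on the third IWAT KI-HFD library. The median interaction was -4.49 for 10 B and plasma cell genes and -2.16 for 16 T and NK cell genes. Ccr7, the homing receptor of lymph node cells, was at 0.852, 1.58 and 94.0 CPM in IWAT KI-HFD and 3.62, 1.85 and 2.23 CPM in IWAT WT-NC. Without that library the medians were 0.65 for B and plasma cells and 1.95 for T and NK cells, so both turned sign. The class II antigen presentation list, at -0.79, was 0.11 without it and -0.09 without BAT WT-NC 3. The resident macrophage median stayed between -1.79 and -0.95, and the pericyte and smooth muscle median between 0.62 and 1.03, over all 26 settings tried.

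**Figure D5:**
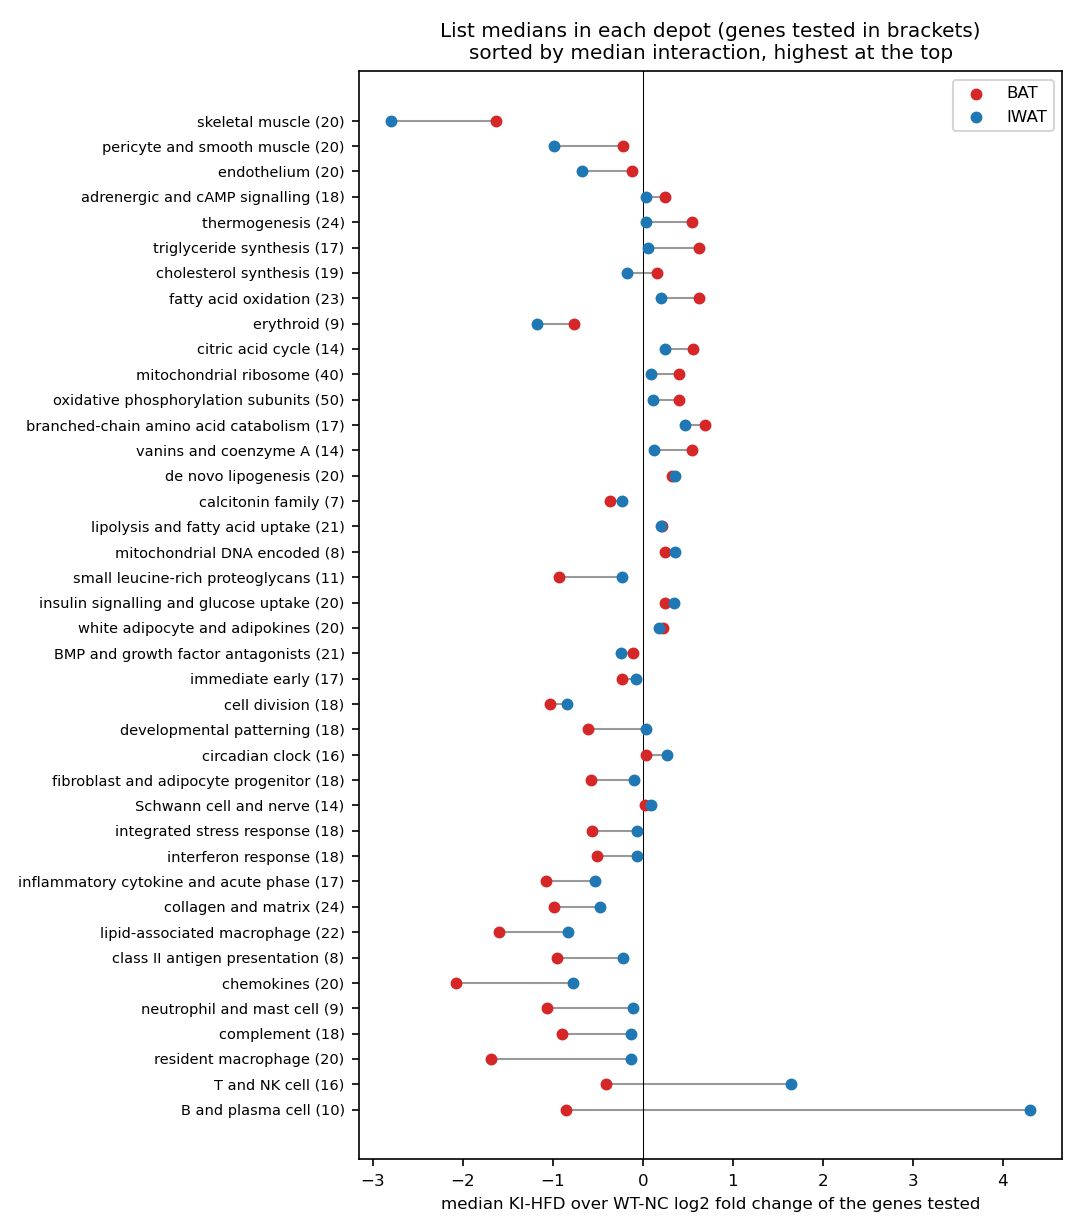
Median KI-HFD over WT-NC log2 fold change of each list in BAT (red) and in IWAT (blue), for 40 lists with at least 5 genes tested (numbers in brackets), sorted by median interaction. Macrophage, chemokine and complement medians are lower in BAT than in IWAT, vessel medians are lower in IWAT than in BAT, the skeletal muscle interaction of 1.12 runs from -0.03 to 3.04 with 1 library left out, and the lymphocyte lists at the bottom rest on the third IWAT KI-HFD library.

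As a counterpart, 33 genes (0.190% of those tested) were called by edgeR for the change averaged over both depots, 13 higher and 20 lower in KI-HFD. Not all of the 33 changed alike in both depots. The log2 fold changes were 0.25 in BAT and 1.63 in IWAT for Thbd, and -0.39 in BAT and -2.07 in IWAT for Mgp. For Ccl9 they were -2.69 in BAT and -0.71 in IWAT. The genes named next were picked for an interaction p above 0.5. Cfd, the adipocyte protease adipsin, rose to 1240, 1200 and 3220 CPM in BAT KI-HFD, against 468, 218 and 200 CPM in BAT WT-NC, and to 5650, 15300 and 6070 CPM in IWAT KI-HFD, against 1000, 2220 and 948 CPM in IWAT WT-NC. The log2 fold changes of Cfd were 2.68 in BAT and 2.70 in IWAT (adjusted p = 0.039 for the average). Acsm5, a medium-chain acyl-CoA synthetase, had log2 fold changes of 1.68 in BAT and 1.54 in IWAT. Pdp2, a pyruvate dehydrogenase phosphatase, had 0.92 in BAT and 0.79 in IWAT, and Shmt1, of serine and glycine metabolism, 1.02 in BAT and 1.21 in IWAT. The matrix genes Ccn2, a connective tissue growth factor, and Bgn, biglycan, fell, with averaged log2 fold changes of -1.85 and -1.10. The interaction of Bgn was -0.02 ± 0.36 and that of Cfd -0.02 ± 0.79, so unequal change is not excluded at this precision. The 33 calls became 0 when the second BAT KI-HFD, BAT WT-NC or IWAT KI-HFD library or the third IWAT WT-NC library was left out. They became 1 without the first BAT KI-HFD or IWAT WT-NC library, 15 without the third BAT KI-HFD library, and 76 without the first BAT WT-NC library, 63 without the third BAT WT-NC library and 58 without the first IWAT KI-HFD library.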

How the data were processed

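BAT and IWAT of KI-HFD and WT-NC mice were profiled by poly-A, single-end, non-stranded RNA-seq in 12 libraries, 3 per group. The deposited values are raw counts per gene, which the authors made with STAR and HTSeq on GRCm38.p5 after FastQC, per the submitters' processing notes, which name DESeq2 as well; versions are not given in the sources used here. Rows that name no gene were left out; in BAT they held 4.99 to 11.6% (no feature) and 22.7 to 31.6% (not unique). Without strand, overlapping antisense genes cannot be separated. All 55536 identifiers were matched to the GRCm38 annotation. Counts were tested with edgeR 4.0.16 (R 4.3.3; TMM, filterByExpr with a minimum count of 10, quasi-likelihood) in 1 model of 4 groups over 12 libraries, giving 17395 genes, with Benjamini-Hochberg adjustment and a two-sided threshold of 0.05. Levels are CPM, and folds are the fitted edgeR log2 fold changes put back on the linear scale, which lie near the ratios of group means. DESeq2 1.42.0 and limma 3.58.1 were alternatives, as were other scalings, filters, blocks and each library left out. The fit was tested on simulated data. Genes were named by lowest interaction p at 2 CPM or more in a group (20 genes), by opposite order in the depots, by up to 4 per list, by a fixed set, and by lowest p of the averaged change with an interaction p above 0.5. A few genes that the rule names are not reported here. Members and lists were chosen with earlier results of these data known.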

Additional observations from a re-analysis of the deposited data

Results flagged for a closer look

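For 23 of the genes named above, DESeq2 called a different KI-HFD over WT-NC effect in BAT and in IWAT, while edgeR called none (smallest adjusted p = 0.463). The DESeq2 adjusted p values of genes with a higher effect in BAT were 7.23e-06 for Elovl3, 0.000688 for Kcp, 0.000731 for Kcnk3, 0.00106 for Myrip, 0.00131 for Tmem132b, 0.00353 for Alpl and 0.00487 for Fgf9. They were 0.00494 for Hdc and for Aig1, 0.00522 for Slc29a1, 0.0104 for Adam12 and 0.027 for Slc4a4. Genes with a lower effect in BAT had DESeq2 adjusted p values of 0.00119 for Adrb3, 0.00379 for Ncam2, 0.00423 for Dclk1, 0.00486 for Agt and 0.00566 for Ccdc9b and Alcam. They were 0.019 for Golga7b and Zfp493, 0.0388 for Spp1 and Gdf15, and 0.0411 for Ccl6. Why the tools differ was not tested.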

How the results depend on the processing

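The interaction count of 0 became 33 (9 higher, 24 lower) with no filter on low counts and 28 with DESeq2, and was 0 with each library left out. In BAT the count of 0 became 5 with library totals, 356 with no filter, 397 with DESeq2, 3 with limma-voom (3 with the file-name number as a random block), 3 in the lower number series alone and 7 in the 6 BAT libraries alone, and ran from 0 to 16 with 1 library left out. In IWAT the count of 1 became 4 with library totals, 136 with no filter, 0 at a mean of at least 2 CPM, 120 with DESeq2, 7 with limma-voom (7 with the random block), 4 with the number series as a term, 0 in the lower number series alone, 8 without the lymphocyte-rich and the muscle-rich library and 0 in the 6 IWAT libraries alone, and ran from 0 to 7 with 1 library left out. The averaged count of 33 became 631 with no filter, 690 with DESeq2, 7 with limma-voom (7 with the random block), 4 in the lower number series alone and 3 without the lymphocyte-rich and the muscle-rich library, and ran from 0 to 76 with 1 library left out. BAT over IWAT in WT-NC was called for 1564 genes with the file-name number as a block, and for 3176 to 5961 with 1 library left out. Leaving out the lymphocyte-rich and the muscle-rich library together was chosen after seeing the data. With the replicate block the interaction count was 0 (714 at an unadjusted p below 0.05), the BAT count 0, the IWAT count 0 and the averaged count 38, of which 24 were shared. Libraries with the same title number correlated between -0.23 and 0.235 in their deviations, over 0.1 in 5 of 18 pairs. Some of these pairs join KI-HFD and WT-NC libraries, which cannot be the same mouse. The 5 pairs that share a file-name number correlated between -0.108 and 0.0688, and with that number as a block the interaction count was 0. Libraries of the same mouse need not deviate together, so these correlations cannot decide whether either number marks a mouse. Library totals moved the median interaction of all genes to -0.11. Of the genes named by lowest p or opposite order, 21, none was reversed in 25 to 26 settings. These genes were picked from the same libraries for their difference between depots, so a kept sign was likely beforehand and lends them no support. Of 40 lists, 21 kept the sign of their median in every setting. Interactions turned sign for Ccr7 (1.14 in the lower number series, 0.513 without the lymphocyte-rich and the muscle-rich library, and -4.98 to 0.588 with 1 library left out) and Fcer2a (0.274 without both libraries, -6.68 to 0.121 with 1 left out), where IWAT KI-HFD 3 gave the highest of each range. They also did for Ramp1 (0.198 without both), Adipoq (-0.148 without both), Calca (-0.0027 without BAT KI-HFD 3 to 2.52), Ucp1 (-0.826 in the lower number series, -0.488 without IWAT WT-NC 3 to 1.95) and Calcrl (0.532 without both, -0.53 to 0.246 without BAT WT-NC 2). The cause was not tested.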
